A study of Mus musculus with 193 samples.

Results

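The 10 genes described here are the mouse ribosomal RNA precursor, listed in the table as Rn45s, and 9 genes for proteins of the nucleolus: Ncl, Fbl, Npm1, Nop56, Nop58, Nolc1, Polr1a, Polr1b and Ubtf. They were chosen by symbol, as 10 of the 19642 rows of the table, with earlier results of these data known, so their levels and differences are given as descriptions. The data are single-cell RNA-seq of mouse testis cells sorted for green fluorescence and labelled Id4-eGFP Positive, after a reporter for Id4, a gene of spermatogonial stem cells. At postnatal day 3 (P3) there were 71 cells labelled Wildtype (WT) and 69 labelled Rhox10 Knockout (KO), and at postnatal day 7 (P7) there were 53 labelled Wildtype. All 193 cells carry the same reporter label, and the labels name neither a strain nor the allele of the knockout. Letters in the sample titles, which the labels do not explain, divide the cells into 7 sets: A with 16 and B with 55 WT P3 cells, A with 21, B with 12 and C with 36 cells labelled KO, and A with 12 and B with 41 WT P7 cells. No animal is named, so each group counts as 1 sample and no p-value is given.

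The nucleolus is where ribosomes begin. RNA polymerase I, whose catalytic core includes the products of Polr1a and Polr1b, transcribes the ribosomal DNA repeats into a long precursor, with the DNA-binding factor encoded by Ubtf holding the repeats in an active state. Small nucleolar RNAs (snoRNAs) then guide chemical modification of the precursor. Those of the box C/D class form particles with fibrillarin (Fbl), which is the methyltransferase, and with Nop56 and Nop58, while Nolc1 is a chaperone of such particles. Nucleolin (Ncl) and nucleophosmin (Npm1) are abundant nucleolar proteins that act in precursor processing and ribosome assembly.

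The genes for 3 of these proteins also hold snoRNAs inside their introns, so that the guides and a protein are made from the same transcript. 4 of these snoRNAs are shown because they carry the boxes on which Fbl, Nop56 and Nop58 assemble. Each sequence is that of the GENCODE vM21 transcript and is given with its GRCm38 position. Each lies within an intron of its host and is written 5′ to 3′ with the box C core (TGATG) and box D (CTGA) in capitals.
Snord82, in Ncl, chr1:86356261-86356330, minus strand: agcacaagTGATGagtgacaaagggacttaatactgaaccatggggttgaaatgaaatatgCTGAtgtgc
Snord110, in Nop56, chr2:130275506-130275573, plus strand: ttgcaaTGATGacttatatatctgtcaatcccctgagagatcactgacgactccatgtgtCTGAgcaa
Snord70, in Nop58, chr1:59691934-59692020, plus strand: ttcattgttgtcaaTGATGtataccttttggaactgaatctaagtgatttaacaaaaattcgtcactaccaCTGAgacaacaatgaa
Snord11, in Nop58, chr1:59704790-59704873, plus strand: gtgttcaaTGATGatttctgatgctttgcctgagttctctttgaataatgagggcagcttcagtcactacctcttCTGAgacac
These snoRNAs were named after their values had been seen. Snord82 had a read in 14 of the 193 cells, Snord70 in 12 and Snord11 in 2, while their hosts Ncl and Nop58 had reads in all 193. Snord110 has no row of its own. The 90 snoRNA rows of the table together summed to a median of 8.71 RPM (reads per 1000000 reads of a cell's total). The table therefore describes the host mRNAs and hardly the guides.

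Depth set what could be seen of each gene. The values were given as RPM of a total that ran from 251530 to 10663507 reads per cell, with medians of 4425188 in WT P3, 4552353 in the cells labelled KO and 3299782 in WT P7. Reads on genes (all gene rows without Rn45s and without the ERCC spike-in RNA) came to 25424 to 1373776 per cell. Their share of the total was not the same in the groups: the median was 10.6% in WT P3, 13.9% in the cells labelled KO and 15.03% in WT P7. Every member is therefore given on 2 scales, RPM and per gene read. All 193 cells had more than 1 RPM of Ddx4 and of Dazl, which mark germ cells, with medians of 237.0 and 670.5 RPM, but the lowest values, 2.35 and 9.98 RPM, were far below these and lay in set A labelled KO. The summed level of 8 germ cell genes ranged there from 18.8 to 2317 RPM, and the lowest in any other set was 504.8 RPM. Rhox10 did not follow its label in every set, with a mean log2(RPM + 1) of 1.78 and 1.49 in the WT P3 sets A and B against 2.48, 2.62 and 0.83 in the sets A, B and C labelled KO. The deleted part of Rhox10 is not given in the sources used here. Id4 itself was at 3.75 and 3.46 in the WT P3 sets, at 1.14, 2.41 and 2.25 in those labelled KO and at 1.99 and 2.59 in the WT P7 sets.

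The row Rn45s, the polymerase I product, took 0.183% to 1.66% of the total reads of a cell, and the sets of the 3 groups stood apart in RPM. Its values do not tell where in the transcript the reads lie, so precursor and mature ribosomal RNA were not told apart. How reads with several alignments were counted is not given for this row either. In WT P3 set A the lowest, median and highest cells had 1828, 7385 and 16587 RPM, and in WT P3 set B 2239, 6709 and 16474 RPM. In the sets A, B and C labelled KO the same 3 values were 4353, 7568 and 11614 RPM, then 6389, 8252 and 10842 RPM, then 5182, 8428 and 12334 RPM. WT P7 set A had 7630, 11337 and 14214 RPM, and WT P7 set B 8218, 11986 and 15926 RPM. Set means on the log2 scale did not overlap between any of the groups, with WT P7 highest and WT P3 lowest. The cells themselves did overlap: 23 of 71 WT P3 cells and 42 of 69 cells labelled KO were at or above the lowest P7 cell, whereas 2 and 1 were at or above the P7 median of 11967 RPM.

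**Figure D1:**
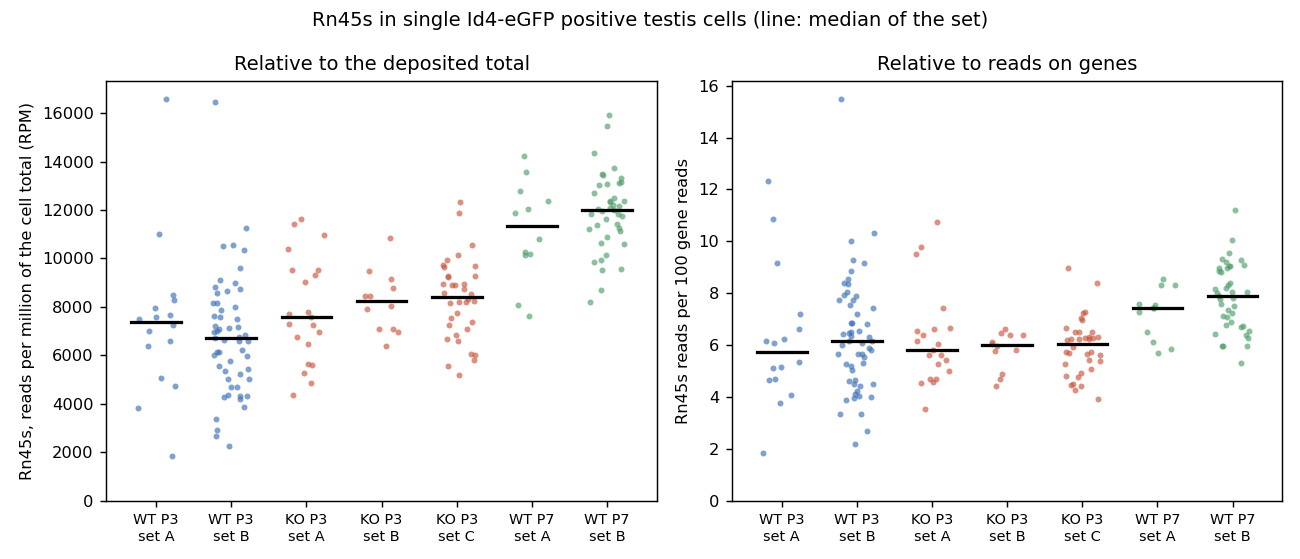
Rn45s in each cell by lettered set, in RPM on the left and as reads per 100 gene reads on the right, both on linear axes from 0, with a horizontal line at the median of the set. The 2 WT P7 sets have the highest medians in both panels, while the sets labelled KO stand above WT P3 in the left panel and lie between 5.81 and 6.05 in the right one, beside 5.72 and 6.14 in WT P3.

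The size of these steps depended on what Rn45s was set against. A group's level is the unweighted mean of its sets' mean log2(RPM + 1), and a difference is given with its range over all pairs of sets, 4 pairs for WT P7 against WT P3 and 6 for cells labelled KO against WT P3. Both comparisons share the WT P3 cells. Rn45s was higher in WT P7 than in WT P3 by 0.80 (range 0.72 to 0.89), a ratio of mean RPM of 1.63. Per gene read the difference was 0.36 (range 0.27 to 0.44), a ratio of 1.204. In the cells labelled KO, Rn45s was higher than in WT P3 by 0.29 (range 0.18 to 0.36) in RPM, with a ratio of 1.15. Per gene read that difference was 0.01 (range −0.05 to 0.07), with a ratio of 0.956, so the sets of these groups overlapped. The higher share of gene reads, from 10.6% in WT P3 to 13.9% and 15.03% of the total in the other groups, moves with the Rn45s values in RPM, and its part in them was not tested.

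Summing the reads gave the same order in RPM. The pooled level was 6878 RPM in WT P3 (exact Poisson 95% interval 6869 to 6887), 8342 RPM in the cells labelled KO (8332 to 8352) and 11663 RPM in WT P7 (11647 to 11679), where the intervals cover counting error only. Per 100 gene reads, the pooled values were 6.12, 5.96 and 7.48, with the cells labelled KO lowest. Against ERCC spike-in reads, the median cell of set A had 0.649 Rn45s reads per ERCC read in WT P3 and 0.877 in WT P7, and that of set B 0.885 in WT P3 and 1.52 in WT P7. ERCC reads took a median of 1.197%, 1.34% and 1.27% of the total in the 3 sets with the letter A, against 0.746% to 0.855% in the others. On this scale the difference between WT P7 and WT P3 was 0.79 (range 0.13 to 1.45), so it kept its direction in all pairs of sets. For the cells labelled KO it was 0.27 with a range across 0 (−0.49 to 0.83), and the median cells of their sets A, B and C had 0.564, 0.945 and 0.918 Rn45s reads per ERCC read.

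In RPM and per gene read, Rn45s varied most between WT P3 cells. The coefficient of variation between cells was 44.1% and 36.3% in the WT P3 sets A and B, 27.6%, 15.3% and 19.9% in the sets A, B and C labelled KO, and 18.2% and 13.6% in the WT P7 sets A and B. Per gene read, the WT P3 sets stood at 42.7% and 35.5% and the other 5 sets between 12.7% and 29.4%. Among the 66 WT P3 cells with at least 1000000 reads, the coefficient was still 43.6% in set A and 36.02% in set B. The WT P3 cells with the most and the least Rn45s differed 9.08-fold, compared with 2.83-fold in the cells labelled KO and 2.09-fold in WT P7. Per ERCC read the sets were not ordered in this way, with 58.2% and 51.5% in the WT P3 sets, 48.3%, 30.1% and 36.6% in those labelled KO, and 53.4% and 44.9% in the WT P7 sets.

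The polymerase I genes were low in single cells. Between the group levels of WT P7 and WT P3, the transcription factor gene Ubtf differed more than the subunit genes Polr1a and Polr1b. Its range over pairs of sets overlapped theirs, so this order did not hold in every pair. Ubtf (chr11:102304560-102319742, minus strand) had a lowest, median and highest value of 4.45, 21.3 and 41.8 RPM in WT P3 set A and of 2.98, 15.8 and 45.3 RPM in set B. In WT P7 it had 1.57, 50.8 and 127.6 RPM in set A and 1.65, 37.0 and 117.9 RPM in set B. The P7 medians thus lay above the P3 medians, although the lowest P7 cells were below the lowest P3 cells. The difference was 1.06 (range 0.65 to 1.47), a ratio of mean RPM of 2.48, and 0.63 (range 0.29 to 0.98) per gene read. Ubtf was the only member to reach a 2-fold difference (a log2 difference of at least 1) between WT P7 and WT P3 in RPM, where 7.09% of the 7669 genes above the level floor (a mean log2(RPM + 1) of 1 or more over the groups compared) were 2-fold higher and 3.00% 2-fold lower. By the ratio of mean RPM, Polr1b (2.20) and Nolc1 (2.01) were above 2 as well, as was Fbl (2.07), which is under the floor. Per gene read no member reached a 2-fold log2 difference, beside 5.12% of genes 2-fold higher and 18.9% 2-fold lower.

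Polr1a (chr6:71909053-71984935, plus strand) encodes the largest subunit of polymerase I. It had a median of 4.17 and 4.71 RPM in the WT P3 sets A and B, of 6.07, 4.65 and 5.83 RPM in the sets A, B and C labelled KO, and of 12.1 and 10.8 RPM in the WT P7 sets. Each of these sets also held cells with no read or under 1 RPM, so the sets overlapped cell by cell. The difference between WT P7 and WT P3 was 0.59 (range 0.47 to 0.72), and 0.24 (range −0.13 to 0.62) per gene read. The mean level labelled KO was 0.14 lower than in WT P3 (difference −0.14, range −0.22 to −0.05), although the medians of 2 of its sets were above both WT P3 medians. More than 1 RPM of Polr1a was found in 63 of 71 WT P3 cells, 52 of 69 cells labelled KO and 45 of 53 WT P7 cells.

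Polr1b (chr2:129100995-129126594, plus strand) encodes the other large core subunit. Its median was 11.8 and 12.96 RPM in the WT P3 sets A and B, 4.36, 10.0 and 13.1 RPM in the sets labelled KO, and 13.1 and 26.9 RPM in the WT P7 sets A and B. The 2 P7 sets differed from each other, with mean levels of 3.55 in A and 4.45 in B. The P7 difference of 0.60 therefore had a wide range, from 0.02 to 1.18, and per gene read it was 0.13 (range −0.75 to 1.01). Against WT P3, the cells labelled KO differed by −0.32 (range −1.02 to 0.35).

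Of the genes for the box C/D particle, Nop56 was higher at P7 in all pairs of sets, and Nop58 was not. Nop56 (chr2:130274430-130279313, plus strand) had a lowest, median and highest value of 3.10, 20.2 and 39.5 RPM in WT P3 set A and of 3.57, 22.5 and 75.3 RPM in set B. In WT P7 the values were 24.2, 43.7 and 83.6 RPM in set A and 2.23, 38.8 and 112.9 RPM in set B. Both P7 medians lay above both P3 medians, and the lowest cell of P7 set A was above either P3 median. The difference was 0.97 (range 0.70 to 1.25), a ratio of 1.97, and 0.57 (range 0.21 to 0.92) per gene read.

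Nop58 (chr1:59684971-59719044, plus strand) had medians of 34.2 and 34.3 RPM in the WT P3 sets, and of 23.9 and 47.6 RPM in the WT P7 sets A and B. The P7 sets thus fell on either side of P3, with a difference of −0.18 (range −0.71 to 0.36). Per gene read both P7 sets were lower, by −0.65 (range −1.28 to −0.01), the smallest of which is close to 0. In the sets labelled KO its medians were 21.6, 38.3 and 46.3 RPM, a difference from WT P3 of 0.04 (range −0.62 to 0.44).

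Nolc1 (chr19:46075863-46085530, plus strand), the particle chaperone, followed Nop56 rather than Nop58 in its group levels. Its lowest, median and highest values were 11.5, 19.96 and 30.1 RPM in WT P3 set A and 8.19, 23.6 and 66.3 RPM in set B, against 5.74, 46.1 and 73.7 RPM in WT P7 set A and 8.13, 41.96 and 135.4 RPM in set B. The P7 medians were above the P3 medians, and the cells overlapped. The difference was 0.89 (range 0.71 to 1.07), with a ratio of 2.01, and 0.47 (range 0.21 to 0.72) per gene read.

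Fbl (chr7:28169710-28179269, plus strand) was listed far below its partners. Per kilobase of its principal transcript, the mean level in WT P3 was 0.359 RPM for Fbl, against 12.0 for Nop56 and 21.3 for Nop58. Only 520 Fbl reads were recovered over all 193 cells, in 135 of them. Of the 50-base windows of the Fbl transcript, 73.0% also occur in transcripts of other genes in the GENCODE annotation, compared with 40.9% for Npm1, 37.6% for Nop56, 3.37% for Polr1b and under 1% for Ncl, Nop58, Nolc1, Polr1a and Ubtf. How reads with several alignments were counted is not given in the sources used here, so the levels of Fbl, Npm1 and Nop56 are uncertain, and the part of shared sequence in them was not tested. Npm1 had the highest level of the 9 on this scale, 151.2 RPM per kilobase in WT P3. Fbl was under the level floor and its differences, 0.36 for WT P7 and 0.19 for cells labelled KO, became −0.22 and −0.14 when every cell was thinned to 25000 gene reads. After thinning, 20 of the 193 cells had an Fbl read. Per gene read, without thinning, the 2 differences were 0.70 (range 0.67 to 0.72) and 0.38 (range −0.11 to 0.94).

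The 2 abundant nucleolar proteins also parted. Ncl (chr1:86344719-86359400, minus strand) had medians of 188.8 and 218.6 RPM in the WT P3 sets A and B, and of 243.0 and 256.4 RPM in the WT P7 sets. The 2 groups' set means did not overlap, at a difference of 0.30 (range 0.09 to 0.51), but per gene read it was −0.15 (range −0.43 to 0.13), so the order depends on the scale. In the sets A, B and C labelled KO the medians were 153.3, 312.5 and 297.4 RPM. Sets B and C were thus above every other set and set A below.

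Npm1 (chr11:33152287-33163206, minus strand) was the member whose P7 level was lower than the P3 level in all pairs of sets on both scales. Its lowest, median and highest cells were 57.3, 198.3 and 425.4 RPM in WT P3 set A and 119.3, 251.3 and 594.6 RPM in set B. In WT P7 they were 54.04, 150.7 and 382.0 RPM in set A and 105.4, 175.9 and 358.5 RPM in set B. The difference was −0.40 (range −0.73 to −0.08), and −0.86 (range −1.26 to −0.45) per gene read, beside a median of all genes of 0.17 and −0.28 on these scales. In the sets labelled KO the medians were 117.6, 201.1 and 202.0 RPM, with a difference of −0.38 (range −1.15 to 0.12) and, per gene read, of −0.66 (range −1.39 to −0.15).

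**Figure D2:**
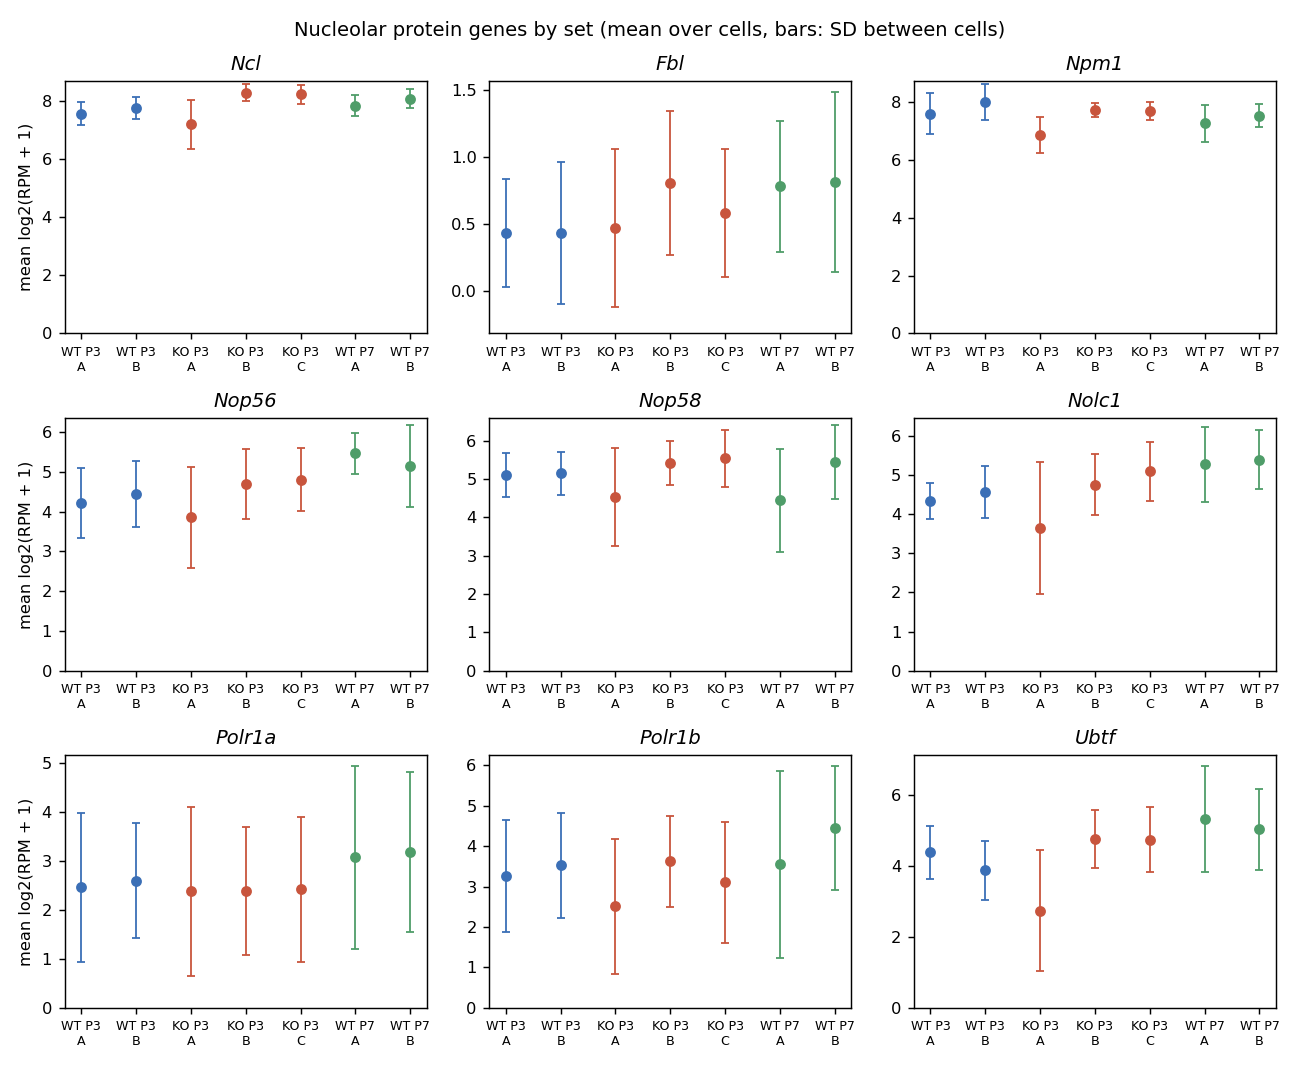
Mean log2(RPM + 1) of each nucleolar protein gene in each lettered set, with bars for the SD between cells, in blue for WT P3, red for P3 cells labelled KO and green for WT P7. Set A labelled KO is the lowest P3 set for every gene but Fbl, and Ubtf falls there to 2.74 against 4.76 and 4.73 in sets B and C.

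Most but not all of the nucleolar protein genes were higher at P7 in RPM. Above the level floor, which Fbl did not pass, Ncl, Nop56, Nolc1, Polr1a, Polr1b and Ubtf were higher in WT P7 than WT P3 in all 4 pairs of sets, where 36.5% of all genes were. Npm1 was lower in all pairs, as were 15.6% of genes, and Nop58 was higher in 2 pairs and lower in 2. Per gene read, Nop56, Nolc1 and Ubtf were higher in all pairs, beside 15.3% of genes, and Npm1 and Nop58 were lower, beside 35.2%. The median difference over all 9, Fbl included, was 0.59 in RPM against 0.17 for all genes, and 0.24 against −0.28 per gene read. Without WT P7 set B the median in RPM was 0.35.

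For the cells labelled KO against WT P3 no member reached a 2-fold difference on either scale, while 1.25% of the 7892 genes above the floor were 2-fold higher and 0.672% 2-fold lower in RPM, and 3.41% and 6.92% per gene read. In RPM, no nucleolar protein gene above the floor was higher in all 6 pairs, beside 16.8% of genes, and Polr1a was lower, beside 5.41%. Rn45s was higher in all 6 pairs on that scale. The Polr1a range reached across 0 with a pseudocount of 0.1 (−0.76 to 0.16) or of 10 (−0.07 to 0.02), with size factors (−0.47 to 0.08), per ERCC read (−0.69 to 0.34), with thinned cells (−0.30 to 0.12), with means before the logarithm (−0.21 to 0.10) and with summed reads (−0.33 to 0.03). Per gene read, none was higher, beside 7.58% of genes, and Npm1 and Polr1a were lower, beside 13.4%. The median over the 9 was 0.04 in RPM and −0.30 per gene read, with 0.13 and −0.10 for all genes.

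**Figure D3:**
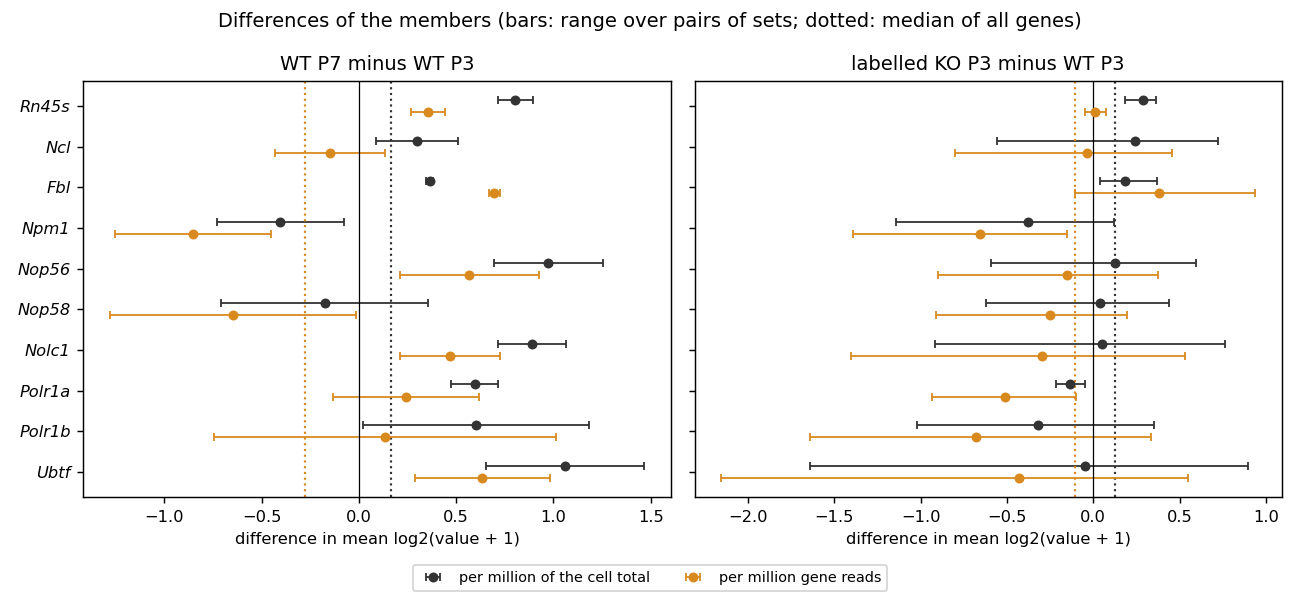
Difference in mean log2(value + 1) of each member, WT P7 minus WT P3 on the left and P3 cells labelled KO minus WT P3 on the right, in RPM (dark) and per gene read (orange, scaled to the sum of gene reads), with bars for the range over pairs of sets and dotted lines for the median of all genes. The ranges are narrow for Rn45s, and in the right panel the other members' ranges in RPM, apart from those of Fbl and Polr1a, span 0.

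Those wide ranges went with set A labelled KO. Its cells had the lowest mean level of the 5 P3 sets for all 8 nucleolar protein genes above the floor. This held in RPM, where 40.3% of 7928 genes were lowest in that set, and per gene read, where 45.9% were. For Polr1a the margin in RPM was slight, at 2.3871 against 2.3876 in set B labelled KO. Rn45s was not lowest there in RPM, at 12.89 against 12.71 and 12.63 in the WT P3 sets. Ubtf showed this most: set A had a lowest, median and highest value of 0, 4.70 and 49.5 RPM, against 7.16, 27.4 and 54.5 RPM in set B and 6.79, 26.4 and 91.5 RPM in set C. Against the mean of sets B and C, set A was lower by −2.01 for Ubtf, −1.27 for Nolc1, −1.06 for Ncl, −0.95 for Nop58 and −0.90 for Nop56, with a median of −0.35 over all genes. Polr1a differed there by −0.02 and Rn45s by −0.10. Without set A, the median difference of the 9 genes from WT P3 was 0.35, not 0.04.

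Other genes moved with that set too. The mean level of 21 genes of the G2 and M phases was 1.68 in set A labelled KO, against 3.86 and 4.34 in sets B and C and 3.23 and 3.88 in the WT P3 sets. The summed level of 9 Sertoli cell markers had a median of 22.1 RPM there, with a range of 0 to 2156, against 2.72 and 0.705 RPM in sets B and C and 11.1 and 1.30 RPM in WT P3. The defining Sertoli genes Wt1 and Sox9 had a read in 10 and 12 of its 21 cells, against 3 and 6 of 12 in set B and 5 and 16 of 36 in set C. Some other cell types showed this as well. The summed level of 8 myoid and stromal genes had a median of 14.1 RPM in set A labelled KO, against 2.33 and 0.96 RPM in sets B and C. In WT P3 it was 1.48 and 0.731 RPM. For 6 endothelial genes these medians were 4.47, 2.38, 0.781, 3.70 and 1.455 RPM. Leukocyte markers had 0.627 RPM in set A labelled KO, below 0.93 RPM in WT P3 set A. WT P7 set A, in which Nop58 and Polr1b were below P7 set B, also had the lower G2 and M level, 2.56 against 4.93, while all 9 Sertoli markers were at 0 in its 12 cells. The part of the cell cycle genes and of other cell types in these differences was not tested.

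Beyond the members, 5 lists held 137 genes of ribosome assembly. In WT P7 against WT P3, 135 of them were above the floor, of which 61 were higher and 10 lower in all pairs in RPM, a share of 45.2% and 7.41% next to 36.5% and 15.6% of all genes. Per gene read the counts were 25 higher and 48 lower, a share of 18.5% and 35.6% next to 15.3% and 35.2%. The median difference of the lists was 0.31 in RPM and −0.14 per gene read, against 0.17 and −0.28 for all genes.

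The polymerase I list had the lowest median of the 5, at −0.07 over 13 genes, of which 2 were higher and 2 lower in every pair. Polr1c, a subunit shared with polymerase III, differed by 0.95 (range 0.79 to 1.12). Rrn3, the factor that brings polymerase I to the promoter, differed by 0.72 (range 0.47 to 0.97). Both were higher per gene read as well, by 0.53 and 0.27. Polr1d, the partner of Polr1c, was lower by −0.52 (range −0.67 to −0.36). Taf1b, of the promoter selectivity factor, had a difference of −0.74 that spanned 0 (range −1.77 to 0.28). Per gene read, Polr1d differed by −1.18 (range −1.36 to −1.01) and Taf1b by −1.80 (range −3.39 to −0.20). On that scale 8 of the 13 genes of the list were lower and 2 higher in every pair. These shares were 61.5% and 15.4%, next to 35.2% and 15.3% of all genes.

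In the list of other snoRNA particle genes the median was 0.32, and 5 of 13 genes were higher and 1 lower in every pair. The highest were the AAA ATPases Ruvbl2 at 1.28 (range 0.78 to 1.78) and Ruvbl1 at 0.77 (range 0.62 to 0.91), which act in particle assembly. The lowest of the list, also assembly factors, were Znhit3 at −0.59 (range −0.77 to −0.40) and Nufip1 at −0.30 (range −0.87 to 0.26).

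Small subunit processing genes had a median of 0.25, and 20 of 50 were higher and 3 lower in every pair. Ddx49, an RNA helicase, differed by 1.62 (range 0.93 to 2.299) and Tbl3, a component of the processome, by 1.58 (range 1.02 to 2.14). The lowest were Utp15, at −0.51 (range −1.27 to 0.25), and Wdr3, at −0.44 (range −0.75 to −0.12), also processome components.

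Large subunit processing genes had a median of 0.36, and 26 of 46 were higher and 4 lower in every pair. Ppan differed by 1.36 (range 0.96 to 1.77) and Nop2, a 28S rRNA methyltransferase, by 1.21 (range 0.70 to 1.72). Gnl3l, a nucleolar GTP-binding protein gene, was lower by −0.71 (range −0.84 to −0.59), and Rsl24d1 by −0.43 (range −0.82 to −0.04). The list of other nucleolar genes had a median of 0.38, and 8 of 13 were higher and none lower in every pair. It was led by Exosc10, of the nuclear exosome, at 1.02 (range 0.37 to 1.67) and Gltscr2 at 0.82 (range 0.54 to 1.10). At its low end, Senp3 had −0.51 (range −1.13 to 0.11) and Nol8 had −0.00 (range −0.32 to 0.31).

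**Figure D4:**
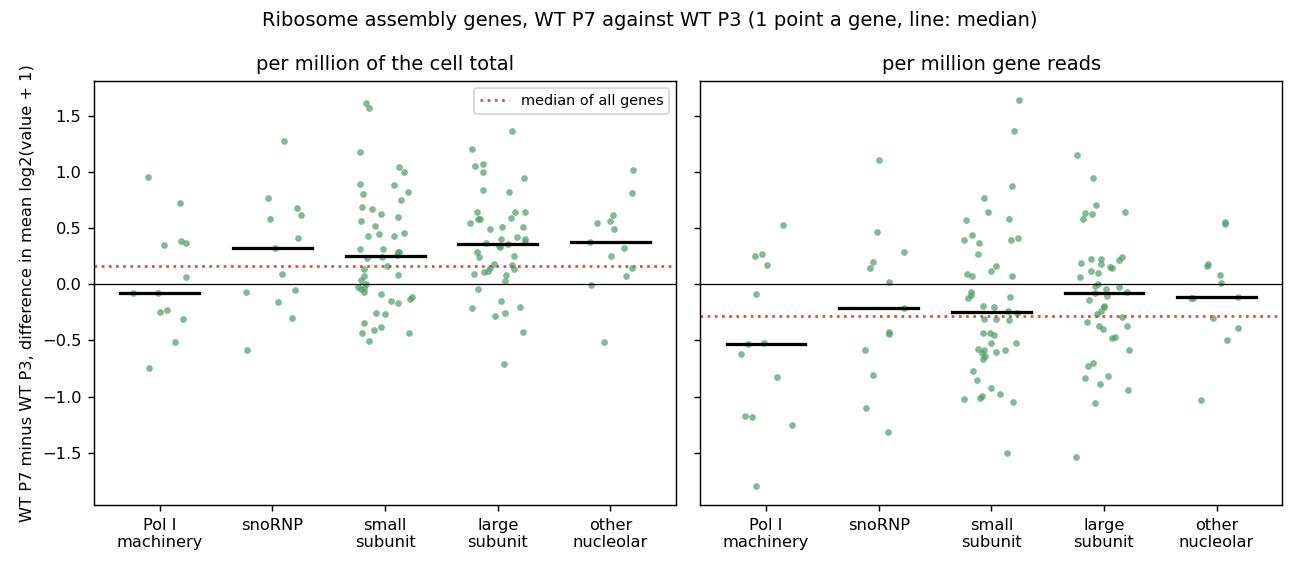
WT P7 minus WT P3 difference in mean log2(value + 1) for each measured gene of the 5 ribosome assembly lists, in RPM on the left and per gene read on the right, with a black line at each list's median and a dotted line at the median of all genes. The list medians run from −0.07 to 0.38 on the left, where the median of all genes is 0.17. On the right all lie below 0, where the median of all genes is −0.28 and only the polymerase I list, at −0.53, is below it.

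In the cells labelled KO, 8 of the 134 list genes above the floor were higher and 8 lower than in WT P3 in all 6 pairs in RPM, 5.97% each, next to 16.8% and 5.41% of all genes, and their median was 0.04. Per gene read 1 was higher and 21 were lower, 0.746% and 15.7%, next to 7.58% and 13.4% of all genes, and the median was −0.25 against −0.10 for all genes. The snoRNA particle list was lowest, at −0.21, and held Nop10, a core protein of box H/ACA particles, at −1.01 (range −1.58 to −0.53) and Nufip1 at −0.58 (range −1.48 to 0.10). Its highest genes were Gar1, at 0.21 (range −0.32 to 0.61), and Nhp2l1, at 0.08 (range −0.50 to 0.60).

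Elsewhere, Wdr3 differed by −0.81 (range −1.64 to −0.37) and Krr1 by −0.69 (range −1.31 to −0.07), both small subunit processing genes, of which Pwp2 at 0.59 (range 0.16 to 0.89) and Wdr43 at 0.55 (range 0.03 to 0.93) were the highest. Among large subunit genes the helicases Ddx55, at 0.76 (range 0.27 to 1.21), and Ddx51, at −0.53 (range −0.97 to −0.29), lay at opposite ends, followed by Ddx54 at 0.44 (range −0.51 to 1.10) and Nip7 at −0.52 (range −1.26 to 0.32). Baz2a, which silences ribosomal DNA repeats as part of a remodelling complex, led the polymerase I list at 0.44 (range 0.09 to 0.84), with Cd3eap next at 0.40 (range −0.06 to 0.71). Polr1c, at −0.26 (range −0.83 to 0.32), and Taf1d, at −0.24 (range −0.60 to 0.01), were the lowest of it. In the other nucleolar list Exosc10 had 0.64 (range 0.28 to 1.12), Mybbp1a 0.48 (range −0.23 to 1.01), Senp3 −0.35 (range −1.27 to 0.38) and Nop16 −0.13 (range −0.99 to 0.54). Of the genes named here with a range above 0 in RPM, Baz2a, Pwp2, Wdr43 and Exosc10 had ranges across 0 per gene read (−0.02 to 0.49, −0.36 to 1.25, −0.09 to 0.57 and −0.02 to 0.90), and Ddx55 did not (0.43 to 1.60). Those with a range below 0 in RPM stayed below 0. Of those with a range across 0 in RPM, Polr1c, Taf1d and Nufip1 lay below 0 per gene read. Their ranges there were −0.99 to −0.06, −0.95 to −0.31 and −2.15 to −0.42, and the rest still spanned 0. In RPM, 94 of the 134 list genes had their lowest P3 level in set A labelled KO, next to 40.3% of all genes.

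Within sets, the relation between Rn45s and the mean of the 9 protein mRNAs differed in sign from set to set. Per gene read, the correlation over cells was 0.25 and 0.26 in the WT P3 sets A and B, −0.20, −0.39 and 0.40 in the sets A, B and C labelled KO, and 0.08 and 0.39 in the WT P7 sets. The unweighted mean over the 7 sets was 0.11, over 193 cells in all. With the mean of the 5 lists it was 0.43 (−0.21 to 0.72), the lowest value coming from set A labelled KO. These are descriptions, since both values of a cell share its library and its total.

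Of 4724 genes at a mean level of 2 or more, the one whose levels across cells were most like those of Rn45s was Lars2, with a mean r of 0.69 and 0.50 to 0.78 in single sets. Next were H2-T23 at 0.43, Rpsa at 0.42, Fau at 0.42 and Tars2 at 0.38, where the median gene had 0.06 and the 99th percentile was 0.30. Sequence shared between Rn45s and these genes was not examined, and how reads with several alignments were counted is not given. Likeness in levels was therefore not told apart from shared reads. For the mean of the 9 protein genes the likeness was weak throughout: Eps15l1, Tbl1x, Tada2a, Cnot2 and Polg led at 0.35, 0.35, 0.34, 0.34 and 0.33, where the 99th percentile was 0.27.

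Promoters of the members were read from RefSeq, on GRCm38.p6, as the 250 bases before each listed start. Those of Nop56 and Nolc1 are shown, with GC boxes (GGGCGG, on either strand) and CCAAT boxes (CCAAT, on either strand) in capitals. Both genes were higher in WT P7 in all pairs of sets on both scales. Ubtf was too, but it has several windows and none of them is printed.
Nop56, chr2:130274162-130274411, plus strand: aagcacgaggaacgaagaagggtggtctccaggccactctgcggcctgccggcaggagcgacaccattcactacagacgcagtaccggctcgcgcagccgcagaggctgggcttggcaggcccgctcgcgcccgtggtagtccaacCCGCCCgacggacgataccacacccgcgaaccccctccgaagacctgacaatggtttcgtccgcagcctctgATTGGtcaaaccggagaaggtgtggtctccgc
Nolc1, chr19:46075597-46075846, plus strand: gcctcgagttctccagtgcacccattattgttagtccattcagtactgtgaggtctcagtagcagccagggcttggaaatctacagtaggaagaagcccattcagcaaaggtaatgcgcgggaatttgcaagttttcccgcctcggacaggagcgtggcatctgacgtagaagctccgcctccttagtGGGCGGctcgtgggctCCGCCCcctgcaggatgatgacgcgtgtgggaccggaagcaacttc
Promoter entries were matched for 7 of the 10 members, Ncl, Nop56, Nop58, Nolc1, Polr1a, Polr1b and Ubtf, with 12 windows in all. Ubtf alone has 6 of them, some of which lie inside its GENCODE span. A GC box was found in 10 of the 12 windows, from every one of these genes but Polr1a, and occurs in 32.7% of all 32851 promoter windows of this length. A CCAAT box was found in 3 of the 12 windows, 1 each of Nop56, Polr1a and Ubtf, and occurs in 33.8% of all windows. The E box CACGTG and the TATA box TATAAA, on either strand, were found in none of the 12 windows, and occur in 6.02% and 12.4% of all windows. In the printed windows no GC box overlaps a CCAAT box. A match or its lack says only what letters the window holds.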

How the data were processed

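Each of the 193 deposited columns is 1 cell. RNA was copied in a Fluidigm C1 device by the SMARTer method, with ERCC spike-in RNA and an added primer ending in random bases, and tagged by Nextera XT, per the labels' protocols. STAR 2.3.0, HTSeq 0.6.1 and mm10 stand in the submitters' processing notes with no role given. The sources used here do not give the annotation, the strand setting or how reads with several alignments were counted. The authors deposited the values under the name TPM, but they are RPM: all genes of a cell share 1 step (within 0.001 RPM, 99.996% of values on average and 99.8% in the lowest cell are whole steps). Reads were recovered by that step. The table's rows summed to 8.13% to 23.0% of the total.

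Cells are not replicates, and each group is 1 sample, so no test was run on the deposited RPM or on the recovered reads. Set means of log2(RPM + 1) were averaged within a group. Python 3.11.15, numpy 2.4.6, pandas 2.3.3 and matplotlib 3.10.9 were used, and the code was tested on simulated data. Counts across genes used those with a mean level of at least 1. Beside the 10 members, Rhox10 and Id4, the text names the 2 highest and 2 lowest genes of each of the 5 lists per comparison, and the 5 genes most like Rn45s and most like the mean of the 9. Ddx4, Dazl, Wt1, Sox9 and the snoRNAs were added after their values were seen. The members and lists were chosen with earlier results of these data known. Intervals cover the counting error of reads only, and not of molecules, because the reads carry no molecular identifiers. Alternatives covered scale, pseudocount, averaging, depth, level floor and each set left out.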

Additional observations from a re-analysis of the deposited data

How the results depend on the processing

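The scale and the averaging moved the Rn45s values, and no setting changed the direction at P7. For WT P7 minus WT P3, Rn45s (0.80 in RPM) was 0.36 per gene read or with gene totals brought to the median cell, 0.34 with size factors, 0.71 with means before the logarithm, 0.70 with summed reads and 0.27 with means before the logarithm per gene read. For cells labelled KO minus WT P3 (0.29) the values in that order were 0.011, 0.011, 0.11, 0.20, 0.24 and −0.065, the last a reversal. With a set left out Rn45s ran from 0.75 to 0.86 and from 0.25 to 0.32. The median of the 9 protein genes at P7 (0.59) was 0.24 per gene read, 0.24 with size factors, 0.25 with gene totals brought to the median cell, 0.35 with a pseudocount of 10, 0.79 with means before the logarithm, 0.80 with summed reads, and 0.35 to 0.66 with a set left out. For the cells labelled KO it (0.04) ran from −0.15 to 0.35 with a set left out. Matching gene totals and taking means per gene read were added after seeing the data.

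Ncl at P7 turned from 0.30 to −0.15 per gene read, −0.16 with size factors, −0.15 with matched gene totals and −0.15 with means per gene read. Fbl turned to −0.22 and −0.14 when thinned. Of the members' other values, 165 stayed within 1 SD over pairs under another setting and 45 moved further. With set A labelled KO left out, Ubtf in the cells labelled KO went from −0.05 to 0.62. Per gene read, 269 genes were 2-fold higher and 546 lower in the cells labelled KO (99 and 53 in RPM), and 1453 were lower at P7 (230 in RPM, and 129 with a level floor of 2). The median of all genes shifted with this scale from 0.13 to −0.10 and from 0.17 to −0.28. The lettered sets cannot be told apart from animals, days or chips, and age cannot be told apart from differences between sets. Genes with few reads, such as Fbl and Polr1a, were not measured well in single cells. No paired analysis was possible because the numbers in the labels count cells and no result comes from a test.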
